A study of Mus musculus with 6 samples.

Results

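Chemokines and inflammatory mediators of stromal cells were examined as 10 genes, taken by symbol from the 17001 rows of a table of expression values: Cxcl1, Cxcl2, Cxcl5, Cxcl12, Cxcl14, Ccl2, Ccl7, Il6, Lif and Ptgs2. All 10 had a row. The cells were calvarial preosteoblasts, the precursors of bone-forming osteoblasts, taken from the skull vault of 3-day-old mice and grown in culture, and RNA of 6 libraries was sequenced. The control libraries, replicates 1 to 3, came from the genotype Nell2 fx/fx, in which both copies of Nell2 carry loxP sites, and replicates 1 to 3 of the other group came from Col1-cre; Nell2 fx/fx (cKO), in which the same floxed copies meet a Cre recombinase driven by a fragment of the mouse Col1a1 promoter. That promoter is active in the osteoblast lineage, so cells of a culture in which it is silent keep an intact Nell2. The labels do not say whether a library holds cells of 1 pup or of several, so the spread between replicates may be partly technical. Values are FPKM, which count sequenced fragments relative to transcript length and library size. They allow a rough comparison between genes as well as between libraries. Where 3 values of a group are given, they stand in the order of replicates 1, 2 and 3.

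Chemokines are small secreted proteins that direct the movement of cells through receptors coupled to G proteins. CXC chemokines that carry a glutamate-leucine-arginine (ELR) motif before their first cysteines, such as CXCL1, CXCL2 and CXCL5, attract neutrophils through CXCR2, whereas CXCL12 retains hematopoietic stem cells and lymphocytes near stromal cells through CXCR4. Stromal cells of bone make CXCL12 without stimulation, and they add CCL2, ELR chemokines, interleukin-6 and prostaglandins when interleukin-1, TNF or Toll-like receptors activate the transcription factor NF-κB.

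The sequences in front of 4 of the genes are shown because the members differ in whether they carry the letters of an NF-κB site close to the start of transcription. Of the 10 genes, 7 had a promoter entry in RefSeq (GRCm38.p6), each with 250 bases before and 50 bases after the start. The κB letters, GGGA and TTCC with any 2 bases between them, were read on both strands. They were found in 3 of these 7, namely Cxcl1, Cxcl2 and Il6, and in 1.47% of all 32851 promoters of that length. The letters TGANTCA of an AP-1 site were in 2 of the 7 (Il6 and Lif) and in 7.81% of all promoters, and the letters TTGCNNAA of a C/EBP site were in 2 (Il6 and Ptgs2) and in 10.8%. In the 120 bases that end just before the start, written 5′ to 3′ on the plus strand, capitals mark the κB letters. In Cxcl1 and Cxcl2 the capitals join 2 overlapping matches, 1 on each strand.
Cxcl1, chr5:90891125-90891244: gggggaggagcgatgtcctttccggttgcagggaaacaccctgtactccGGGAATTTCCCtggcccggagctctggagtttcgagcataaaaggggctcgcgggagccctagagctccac
Cxcl2, chr5:90903779-90903898: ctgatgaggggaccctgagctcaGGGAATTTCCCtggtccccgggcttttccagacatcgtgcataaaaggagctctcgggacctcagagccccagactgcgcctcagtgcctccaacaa
Il6, chr5:30012994-30013113: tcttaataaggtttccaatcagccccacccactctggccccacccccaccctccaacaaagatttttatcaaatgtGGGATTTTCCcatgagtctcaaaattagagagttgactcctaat
Cxcl12, chr6:117168415-117168534: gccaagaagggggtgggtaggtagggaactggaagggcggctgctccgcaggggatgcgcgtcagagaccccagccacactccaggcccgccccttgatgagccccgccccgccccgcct
Cxcl5, Ccl2 and Ccl7 had no entry and were not searched, so the letters cannot be set against the levels of the whole group. A match of letters does not show that a factor was bound there.

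The 6 libraries were first compared as a whole. Their FPKM values summed to between 573307 and 606428, and how many fragments lie behind a value is not known from FPKM. The targeted gene Nell2 was at 3.17, 2.59 and 1.88 FPKM in control, against 5.64, 1.61 and 5.74 FPKM in cKO as labelled. Nell2 was thus above every control in cKO replicates 1 and 3 and below every control in cKO replicate 2. A value per gene does not separate the floxed part of Nell2 from the rest, the study checked the deletion in such cells by qRT-PCR and western blotting, which were not analysed here, and all directions below follow the labels. Col1a1, the main collagen of osteoblasts, was between 8052.61 and 8578.05 FPKM in every library. Of 10 markers of preosteoblasts and mesenchyme, none passed limma's test after adjustment. An unadjusted p under 0.05 was found for 4 (40%), beside 13.1% of all tested genes (5.37% higher and 7.76% lower in cKO). Of these 4, Sp7, Alpl and Prrx1 had lower values and Postn higher values in cKO. Y-linked Ddx3y was between 15.65 and 17.33 FPKM in control replicate 3 and cKO replicates 1 and 3 and at most 0.06 FPKM in the other libraries. Libraries with Y-linked message were thus not balanced between the groups.

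The levels of the 10 genes spanned a wide range. Averaged over the 6 libraries, Cxcl12 was highest at 103.9 FPKM, above 95.3% of the rows of the table, followed by Ccl7 (61.9 FPKM), Cxcl14 (52.3 FPKM) and Ccl2 (49.8 FPKM). Cxcl5 at 26.3 FPKM and Ptgs2 at 15.1 FPKM were intermediate. Cxcl1, Il6 and Lif were low, at 2.94, 2.48 and 1.70 FPKM, and Cxcl2 was near 0 with a mean of 0.067 FPKM. Between neighbours in this order, the ranges over the libraries were apart only for Ccl2 above Cxcl5 (lowest Ccl2 value 40.78, highest Cxcl5 value 39.14), Ptgs2 above Cxcl1, and Lif above Cxcl2. Although the ranges of Cxcl12 and Ccl7 touched, Cxcl12 was the higher of the 2 within each of the 6 libraries, and so was Cxcl5 against Ptgs2. The levels of 9 genes passed the filter of at least 1 FPKM in at least 3 libraries and were tested, and Cxcl2 was not.

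**Figure D1:**
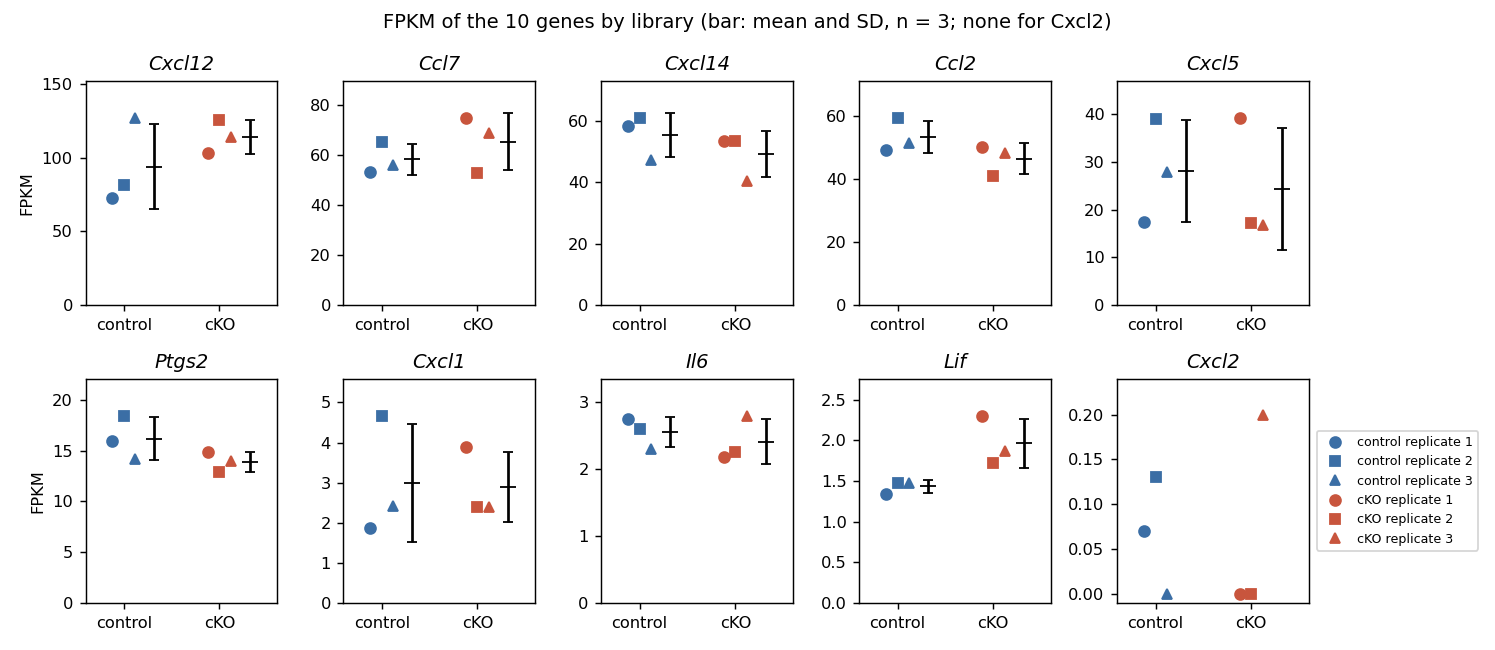
FPKM of the 10 genes (vertical axes, each from about 0) in the 3 control and 3 cKO libraries, 1 point per library, with the mean and SD of each group beside the points except for Cxcl2, which is listed at 0 in 3 libraries. Lif is the 1 gene whose cKO points (1.72 to 2.3) all lie above its control points (1.34 to 1.48).

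CXCL12, which holds blood stem cells and their progenitors in the marrow, was the most abundant message of the group. Its gene Cxcl12 occupies bases 117168535 to 117181367 of chromosome 6 (GRCm38, plus strand). Cxcl12 was 72.93, 81.78 and 126.66 FPKM in control and 102.88, 125.44 and 113.93 FPKM in cKO. Control replicate 3 was the highest of all 6 libraries, whereas the other 2 controls were the lowest, so the groups overlapped. The mean was 93.8 ± 28.8 FPKM (SD, n = 3) in control and 114.1 ± 11.3 FPKM (SD, n = 3) in cKO. On the log2(FPKM + 1) scale, which all fold changes here use, this was a difference of 0.32 with a standard error of 0.20 and an adjusted p of 0.518 in limma (Benjamini-Hochberg). The 95% interval of the difference, from -0.16 to 0.79, reaches from 0.90-fold to 1.73-fold the control level. Without control replicate 3 the log2 fold change was 0.55 (adjusted p = 0.255 in limma), and the remaining control and cKO values were apart, whereas without control replicate 1 it was 0.16 (adjusted p = 0.802 in limma) and they overlapped. In cultures such as these, more cells that make a message and more message per cell cannot be told apart.

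CXCL14 is an ELR-lacking chemokine made by fibroblasts and epithelia. Cxcl14 (chromosome 13, 56288643 to 56296551, minus strand) was 58.26, 60.88 and 47.22 FPKM in control and 53.47, 53.51 and 40.6 FPKM in cKO. The third replicate was the lowest of its group in both genotypes, and the groups overlapped. Its log2 fold change was -0.17 (95% interval -0.51 to 0.16, adjusted p = 0.610 in limma). It was -0.28 without control replicate 3, when the groups were apart, and -0.043 without cKO replicate 3, when they overlapped.

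The ELR chemokine genes Cxcl5, Cxcl1 and Cxcl2 lie in a cluster on the plus strand of chromosome 5, with other genes between Cxcl5 and Cxcl1. The stretch from the start of Cxcl5 to the end of Cxcl2 spans 146.6 kb (90759360 to 90905938). Cxcl5 was 17.49, 38.97 and 28 FPKM in control and 39.14, 17.13 and 16.78 FPKM in cKO. Cxcl1 was 1.88, 4.66 and 2.41 FPKM in the same controls and 3.9, 2.4 and 2.39 FPKM in the same cKO libraries. For both genes, control replicate 2 and cKO replicate 1 were the highest 2 of the 6 libraries, and these come from different genotypes. Cxcl5 varied by 2.33-fold and Cxcl1 by 2.48-fold between the lowest and the highest library, more than any other tested member, for which this ratio was between 1.28 and 1.74.

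The genotypes did not part for either gene. The log2 fold change was -0.24 for Cxcl5 (95% interval -1.16 to 0.68, adjusted p = 0.799 in limma) and 0.01 for Cxcl1 (95% interval -0.62 to 0.64, adjusted p = 0.992 in limma), and these intervals were the widest among the 9 tested genes. Without cKO replicate 1, the log2 fold change of Cxcl5 was -0.63 (adjusted p = 0.283 in limma) and the groups were apart. Without control replicate 2 it was 0.020, so the direction of Cxcl5 rests on which of the 2 high libraries is counted. The sign for Cxcl1 also turned, to -0.20 without control replicate 1, -0.07 without control replicate 3 and -0.17 without cKO replicate 1.

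Cxcl2, 10.8 kb downstream of Cxcl1, carried the same 11 capitals in its promoter but was 0.07, 0.13 and 0 FPKM in control and 0, 0 and 0.2 FPKM in cKO. The 3 values above 0 lie, within rounding, at 1, 2 and 3 times a step between 0.065 and 0.0675 FPKM. No difference between the groups can be read at this level. Transcripts of Cxcl2 and of Cxcl3, which lies on the far side of Cxcl1, share an exact run of 157 bases in GENCODE M21. This is longer than a read of 150 bp, so a fragment of that run fits both genes. How the authors counted it is not given in the sources used here. The longest run shared by Cxcl1 and Cxcl2 was 23 bases.

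Other genes of the same stretch, chosen after their values were seen, were read against this order of libraries. Ppbp, which encodes the platelet chemokine CXCL7, was 0.98, 7.61 and 2.07 FPKM in control and 3.31, 0.6 and 0.93 FPKM in cKO, with the same 2 libraries highest. Cxcl3 was highest in cKO replicate 1 (2.68 FPKM) and next in control replicate 3 (2.12 FPKM). Pf4, a platelet and macrophage chemokine between Ppbp and Cxcl3, did not follow, with its highest values in cKO replicate 2 (6.46 FPKM) and control replicate 3 (6.41 FPKM).

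Il1r1, the receptor through which interleukin-1 induces these chemokines, was likewise chosen after its values were seen. It was 21.92, 29.16 and 27.95 FPKM in control and 28.85, 18.44 and 18.75 FPKM in cKO. Control replicates 2 and 3 and cKO replicate 1 were its highest 3 libraries, as they were for Cxcl5. The share of all genes with the same 3 highest libraries was not counted. A link between Il1r1 and these chemokines was not tested.

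**Figure D2:**
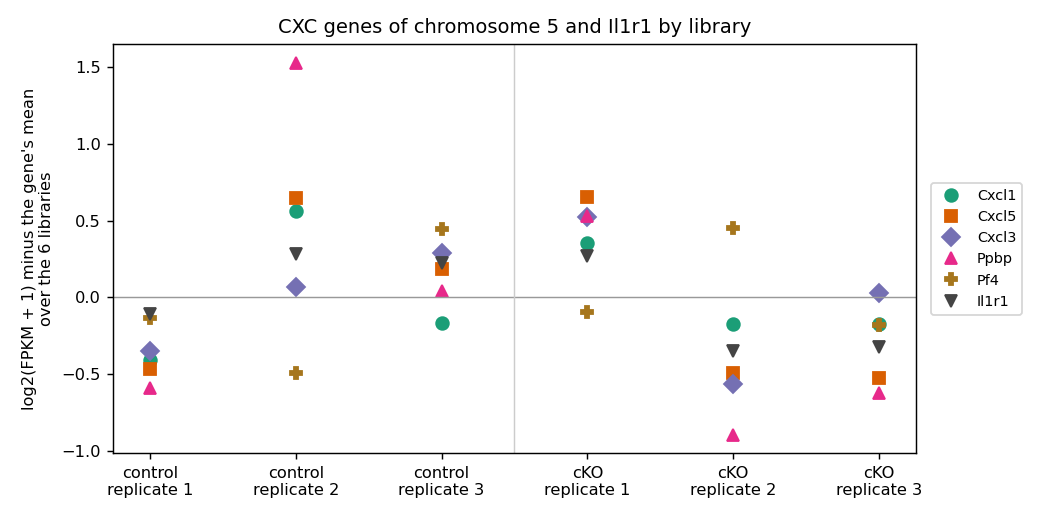
log2(FPKM + 1) of Cxcl1, Cxcl5, Cxcl3, Ppbp, Pf4 and Il1r1 minus each gene's mean over the 6 libraries (vertical axis), by library (horizontal axis). Cxcl1, Cxcl5, Cxcl3, Ppbp and Il1r1, the last 3 chosen after their values were seen, lie above their means in control replicate 2 and cKO replicate 1 and below them in control replicate 1 and cKO replicate 2, whereas Pf4 lies below its mean in control replicate 2 (-0.49) and cKO replicate 1 (-0.095) and above it in cKO replicate 2 (0.46).

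CCL2 and CCL7 draw monocytes through CCR2, and their genes are neighbours on the plus strand of chromosome 11, with 8.26 kb between the end of Ccl2 (82035571 to 82037453) and the start of Ccl7 (82045712 to 82047525). Ccl2 was 49.23, 59.15 and 51.42 FPKM in control and 50.05, 40.78 and 48.26 FPKM in cKO. Ccl7 was 53.42, 65.5 and 56.18 FPKM in the same controls and 74.75, 52.85 and 68.85 FPKM in the same cKO libraries. Both genes were highest in control replicate 2 among the controls and lowest in cKO replicate 2 among the cKO libraries, and both overlapped between the genotypes. The log2 fold change was -0.20 for Ccl2 (95% interval -0.45 to 0.05, adjusted p = 0.456 in limma) and 0.15 for Ccl7 (95% interval -0.18 to 0.49, adjusted p = 0.651 in limma). Without cKO replicate 2 the log2 fold change of Ccl7 was 0.30 (adjusted p = 0.596 in limma) and its groups were apart, whereas it was 0.094 without control replicate 1 and 0.052 without cKO replicate 1. For Ccl2 it was between -0.25, without cKO replicate 1, and -0.11, without cKO replicate 2. The groups of Ccl2 were apart, with lower values in cKO, without control replicate 1 and also without cKO replicate 1. A predicted gene, Gm17268, overlaps Ccl2 on the other strand in GENCODE M21, and whether the counting used the strand is not given in the sources used here.

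The ratio of Ccl7 to Ccl2 within a library, looked at after the values were seen, spread less within each genotype than the level of either gene. The ratio was 1.09, 1.11 and 1.09 in control, against 1.49, 1.30 and 1.43 in cKO. All 3 cKO ratios were above all 3 control ratios, with means of 1.10 ± 0.011 (SD, n = 3) in control and 1.41 ± 0.10 (SD, n = 3) in cKO. As the pair was picked because its ratios separate the genotypes, a test of it could support nothing, and none is given. Among the 36 ratios between the 9 tested members, 7 did not overlap between the groups (19.4%). The corresponding share over all pairs of tested genes above 0 in every library was 18.3%, so the members' share is close to the background. Of the 7 ratios, 5 had Lif as a partner and the others were Ccl7 over Ccl2 and Ccl7 over Ptgs2. Transcripts of Ccl2 and Ccl7 share no exact run longer than 23 bases.

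**Figure D3:**
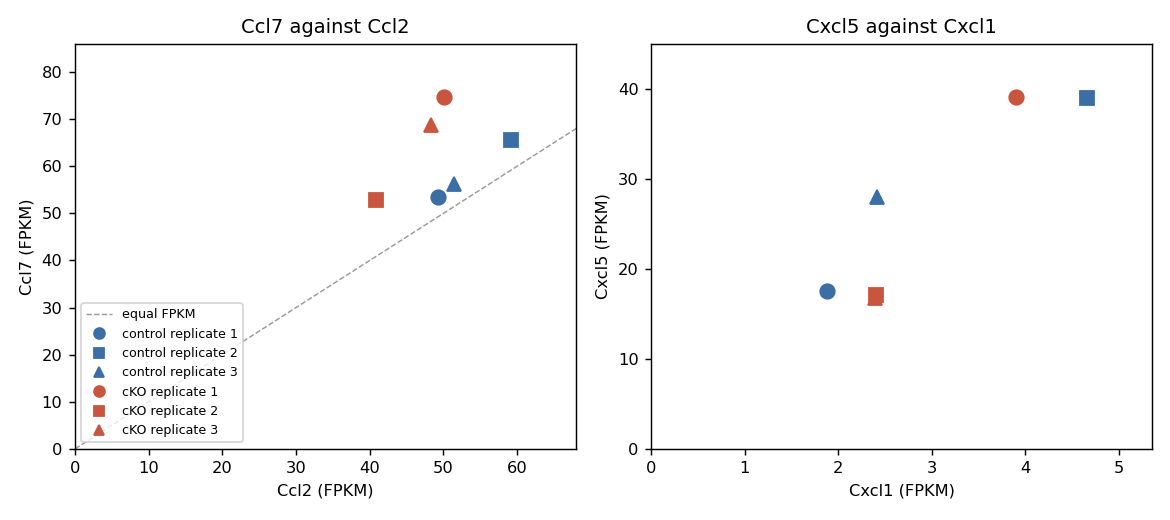
Left, FPKM of Ccl7 against Ccl2, and right, FPKM of Cxcl5 against Cxcl1, 1 point per library, all axes from 0; the dashed line marks equal FPKM. The control points of the left plot lie close to the line, at ratios of 1.09 to 1.11, and the cKO points lie above them at 1.30 to 1.49; on the right, 1 control and 1 cKO library share the upper corner.

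Interleukin-6 and leukemia inhibitory factor (LIF) signal through the shared receptor subunit gp130, encoded by Il6st. Lif, on chromosome 11 from 4257557 to 4272514 (plus strand), was 1.34, 1.48 and 1.48 FPKM in control and 2.3, 1.72 and 1.87 FPKM in cKO. All cKO values lay above all control values, and the cKO mean was 1.37-fold the control mean (1.43 ± 0.081 against 1.96 ± 0.30 FPKM, SD, n = 3). The log2 fold change was 0.28 (standard error 0.085, 95% interval 0.08 to 0.48), and it did not pass the test once adjusted over all genes (adjusted p = 0.312 in limma). As the groups were already apart with every library counted, leaving any library out could not make them overlap, and this adds nothing. The adjusted p over all alternatives was between 0.177 and 0.671 in limma. The 95% interval is that of the unadjusted test.

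Il6, on chromosome 5 from 30013114 to 30019981 (plus strand), was the steadiest of the tested members. It was 2.74, 2.6 and 2.3 FPKM in control and 2.18, 2.26 and 2.79 FPKM in cKO. The lowest and the highest value both came from cKO libraries, and the log2 fold change was -0.06 (95% interval -0.27 to 0.15, adjusted p = 0.789 in limma), between -0.14 and -0.011 with 1 library left out. The interval corresponds to 0.83-fold to 1.11-fold the control level. Without cKO replicate 3, when the log2 fold change was -0.14, the groups were apart, with lower values in cKO.

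Ptgs2 encodes cyclooxygenase-2, the inducible enzyme that commits arachidonic acid to prostaglandins. Ptgs2 (chromosome 1, 150100031 to 150108227, plus strand) was 16, 18.42 and 14.15 FPKM in control and 14.87, 12.88 and 14.03 FPKM in cKO. The 2 highest values were controls and the 2 lowest were cKO libraries, with an overlap between control replicate 3 and cKO replicate 1. The log2 fold change was -0.20 (95% interval -0.45 to 0.05, adjusted p = 0.453 in limma), and it was -0.29 without control replicate 3 (adjusted p = 0.318 in limma), when the groups were apart, but -0.11 without control replicate 2 (adjusted p = 0.761 in limma), when they overlapped.

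Read together, 0 of the 9 tested members had an adjusted p under 0.05 in limma's moderated test, as did 0% of the 11590 genes tested. At an unadjusted p under 0.05 there was 1 of 9 (Lif, higher in cKO), beside 13.1% of all genes, of which 5.37% were higher and 7.76% lower in cKO. Likewise 1 of 9 had cKO values all above control values and 0 of 9 all below, beside 6.51% and 11.8% of all genes (18.3% in either direction). These counts are close to the background. The log2 fold change was above 0 for 4 members and below 0 for 5, with a median of -0.06 beside -0.02 over all tested genes. With 1 library left out, groups that did not overlap numbered 4 of 9 without control replicate 3, beside 33.8% of all genes in that setting, and 4 of 9 without cKO replicate 1, beside 42.0%. These counts too are close to their background.

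**Figure D4:**
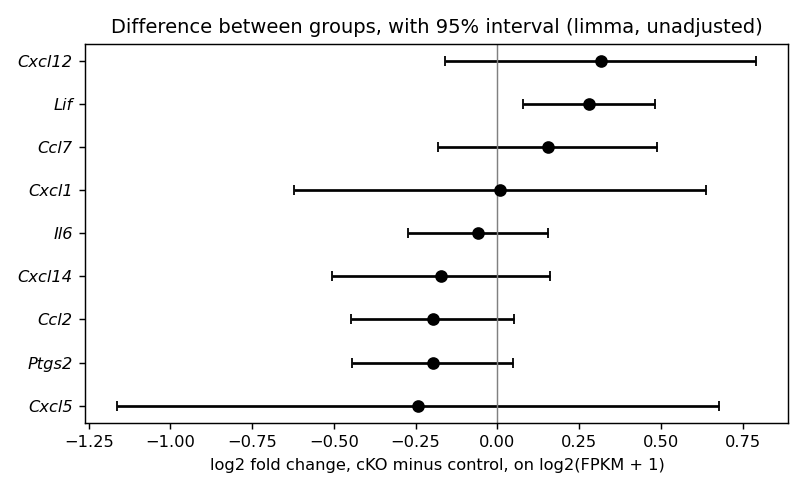
log2 fold change (cKO minus control, horizontal axis, log2(FPKM + 1) scale) of the 9 tested members, as points with the unadjusted 95% interval of limma. The interval of Lif (0.08 to 0.48) is the 1 that does not include 0, and those of Cxcl5 and Cxcl1 are the widest.

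The genes whose profile over the 6 libraries came closest to each member were found by the root mean square difference between log2(FPKM + 1) profiles, each centred on its own mean. For Cxcl1 the closest was Tnfsf11, which encodes the osteoclast-inducing cytokine RANKL, at a difference of 0.14, followed by D8Ertd738e (0.15) and Gngt2 (0.16). Tnfsf11 was 6.21, 13.61 and 10.08 FPKM in control and 13.12, 9.21 and 9.63 FPKM in cKO, again highest in control replicate 2 and cKO replicate 1. For Cxcl5 the closest were Il20ra, a cytokine receptor subunit (0.21), Serpina3g, a protease inhibitor (0.23), and Oip5 (0.25). For Ccl7 they were Bmp1, the protease that trims procollagens, Camk2n2 and Rbpms2 (0.061 to 0.065), and for Lif they were Ksr1, a scaffold of the ERK pathway, Skap2 and Filip1l (0.053 to 0.058). Ptgs2 came closest to Ddx39, Wee1 and Wrap53 (0.028 to 0.032), Ccl2 to Cnep1r1, Galnt7 and Psmb7 (0.033 to 0.034) and Cxcl14 to Nqo1, Paf1 and Phlda3 (0.053 to 0.058). Il6 came closest to Tmem104, Ciao3 and Irak1bp1 (0.028 to 0.039) and Cxcl12 to Bcl2a1b, Lrrn1 and Ankrd23 (0.061 to 0.070). Among 11590 genes and only 6 libraries, close profiles are to be found for any gene.

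The other genes of these pathways were read from lists. Over 9 lists with 140 distinct genes, 133 had a row, 92 passed the filter, 0 had an adjusted p under 0.05 in limma, and 10 had an unadjusted p under 0.05 (10.9%, beside 13.1% of all genes), 6 with higher and 4 with lower values in cKO. Ccl6, counted among the 6, reached the filter through its cKO values. The counts of single lists and of cell markers below stand beside the same 13.1% of all genes. Without cKO replicate 1, when 334 genes of the whole table had an adjusted p under 0.05, 1 pathway gene did, which was Mif.

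Among 27 other chemokine ligands, 23 had a row and 12 passed the filter. Ccl6, a CC chemokine of myeloid cells, was 0.18, 0.14 and 1.37 FPKM in control and 4.95, 6.01 and 2.29 FPKM in cKO. Ccl6 reached the filter through its cKO values, so no test of it is given. Markers of macrophages and leukocytes, beside this, had summed values of 43.5 to 114.1 FPKM in control and 59.7 to 98.6 FPKM in cKO libraries, with 0 of 10 tested markers at an unadjusted p under 0.05 and a higher mean FPKM in cKO for 8 of these 10. The most abundant were Lyz2, Tyrobp and Cd68, led by Lyz2 at 26.61 to 74.99 FPKM. The pan-leukocyte gene Ptprc was at most 0.18 FPKM in any library. Their part in the level of Ccl6 was not tested.

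Chemokine receptors were scarce in these cultures. Of 17 receptor genes, 14 had a row and 2 passed the filter, both of them atypical receptors that bind chemokines and clear them without coupling to G proteins. Ackr3, which binds CXCL12, was at 15.2 ± 2.46 FPKM (SD, n = 3) in control and 15.4 ± 3.39 FPKM (SD, n = 3) in cKO, and Ackr4 was at 4.47 ± 0.72 and 3.63 ± 0.78 FPKM (SD, n = 3). The signaling receptor of CXCL12, Cxcr4, was between 0.2 and 1 FPKM. Cxcr2 and Ccr2, the receptors of the ELR chemokines and of CCL2, were at most 0.08 FPKM in any library. Cxcl12, Cxcl5, Cxcl1, Ccl2 and Ccl7 were thus each above these 3 receptors in every library.

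**Figure D5:**
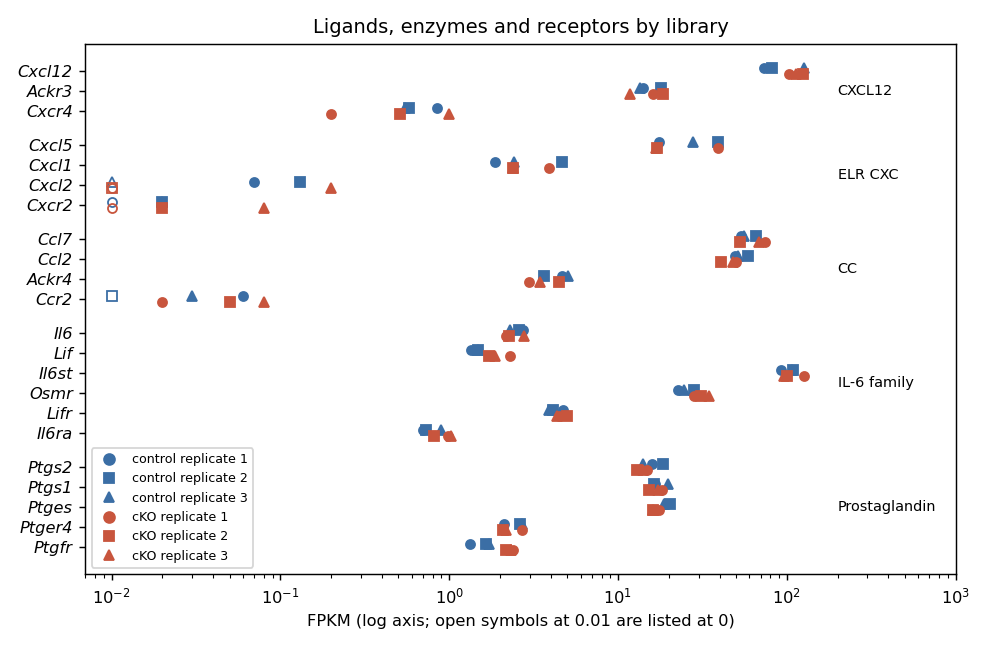
FPKM (horizontal log axis) of ligands, prostaglandin enzymes and receptors in each library, blue for control and red for cKO; open symbols placed at 0.01 are values listed at 0. Cxcl12, Ccl7 and Ccl2 lie between 40.78 and 126.66 FPKM, whereas Cxcr4, Cxcr2 and Ccr2 do not exceed 1 FPKM.

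For the IL-6 family the receptor side was well represented. Il6st, named like the next 2 genes after its values were seen, was between 92.67 and 126.22 FPKM, the LIF receptor gene Lifr between 3.9 and 5 FPKM, and Il6ra, which binds interleukin-6 itself, between 0.7 and 1.02 FPKM. Of 12 family genes beside the members, 9 were tested and 1 had an unadjusted p under 0.05. This was Osmr, the oncostatin M receptor, at 25.2 ± 2.89 FPKM in control and 31.3 ± 3.08 FPKM in cKO (SD, n = 3), a log2 fold change of 0.30 (adjusted p = 0.327 in limma) with overlapping groups. Of 8 genes of JAK-STAT3 signaling, 2 had an unadjusted p under 0.05, both with lower values in cKO. They were Ptpn11, encoding the phosphatase SHP2 (log2 fold change -0.16, adjusted p = 0.362 in limma), and Pias3, encoding an inhibitor of STAT3 (log2 fold change -0.17, adjusted p = 0.374 in limma).

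In the prostaglandin pathway, 13 of 18 genes were tested and 2 had an unadjusted p under 0.05, in opposite directions. Ptges, the synthase that makes prostaglandin E2 downstream of cyclooxygenase-2, was 19.47, 20.36 and 18.72 FPKM in control and 17.45, 16.02 and 16.21 FPKM in cKO (log2 fold change -0.22, adjusted p = 0.312 in limma). Ptgfr, the receptor for prostaglandin F2α, was 1.33, 1.65 and 1.72 FPKM in the same controls and 2.4, 2.17 and 2.33 FPKM in the same cKO libraries (log2 fold change 0.37, adjusted p = 0.312 in limma). The groups were apart for both genes, and neither passed the adjusted test.

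Of the NF-κB pathway, which lies upstream of most members, 20 genes were listed and all 20 passed the filter and were tested. The median log2 fold change was 0.01, with 10 genes above and 10 below 0. Nfkbie, an inhibitor of NF-κB, was the 1 gene with an unadjusted p under 0.05, at 2.79 ± 0.29 FPKM in control and 3.68 ± 0.53 FPKM in cKO (SD, n = 3, log2 fold change 0.30, adjusted p = 0.321 in limma). Of 15 genes of interleukin-1, TNF and Toll-like signaling, 12 were tested. Here the log2 fold change was above 0 for 11 genes and below 0 for 1. The median was 0.14, beside -0.02 over all tested genes. Tnfrsf1b, encoding TNF receptor type II, had an unadjusted p under 0.05 (log2 fold change 0.50, adjusted p = 0.377 in limma). The inducers themselves, named after their values were seen, were near 0, with Il1a at most 0.03, Il1b at most 0.05 and Tnf at most 0.15 FPKM in any library.

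Among 14 other stromal cytokines and acute-phase genes, 7 were tested and 2 had an unadjusted p under 0.05. Mif, encoding macrophage migration inhibitory factor, was 758.2, 807.45 and 717.71 FPKM in control and 869.57, 1081.72 and 1257.08 FPKM in cKO, above every member in every library. Its log2 fold change was 0.48 (adjusted p = 0.312 in limma), and it was 0.62 without cKO replicate 1 (adjusted p = 0.035 in limma). Il34, a ligand of the macrophage receptor CSF1R, had a log2 fold change of -0.23 (adjusted p = 0.365 in limma). Of 9 factors that destabilise or bind inflammatory mRNAs, 0 of 9 tested had an unadjusted p under 0.05, and the most abundant were Zfp36l2 (52.9 FPKM over the 6 libraries), Khsrp (33.0 FPKM) and Zfp36l1 (31.8 FPKM).

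Markers of other cells were set beside these values. Epithelial markers summed to 0.56, 3.71 and 13.4 FPKM in control and to 43.0, 36.2 and 16.4 FPKM in cKO, with a higher mean in cKO for 5 of 5. The tested markers, Krt8, Krt18 and Epcam, reached the filter through their cKO values, so no test of them is given. Epcam, which defines epithelia, was 0, 0.15 and 0.47 FPKM in control and 1.37, 1.58 and 1.21 FPKM in cKO. This is the same direction as Lif and Ccl6, and its part in them was not tested. Skeletal muscle markers had 0 of 5 and endothelial markers 0 of 1 tested genes at an unadjusted p under 0.05. Pecam1 was at most 0.73 FPKM, and Cdh5, the tested endothelial marker, was between 0.68 and 1.42 FPKM. Of 7 markers of the CXCL12-abundant reticular cells of marrow, 1 had an unadjusted p under 0.05, Angpt1 (log2 fold change 0.62, adjusted p = 0.315 in limma). Lepr, which defines those cells, was between 1.8 and 4.26 FPKM, and Kitl between 1.68 and 3.17 FPKM. Higher levels were found for Pdgfrb (97.03 to 119.99 FPKM), Vcam1 (56.07 to 68.92 FPKM), Foxc1 (10.8 to 12.91 FPKM) and, less so, Ebf3 (4.18 to 7.22 FPKM).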

How the data were processed

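RNA of 6 libraries of cultured calvarial preosteoblasts (3 control, 3 cKO) was sequenced as 150 bp paired-end reads. The authors mapped reads with HISAT2 to the mouse transcriptome (GRCm38, per the submitters' processing notes) and deposited FPKM values rounded to 2 decimals. The notes also name DESeq, whose output is not among the values used here. The annotation and the program that computed FPKM are not given in the sources used here.

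Rows with at least 1 FPKM in at least 3 libraries were taken as log2(FPKM + 1) and compared with limma 3.58.1 in R 4.3.3 over the whole table (Benjamini-Hochberg), a scale that understates changes of low genes. The script was tested on simulated data. Intervals are 95% and unadjusted. Positions are from GENCODE M21, promoters from RefSeq GRCm38.p6.

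The members and lists were chosen with earlier results of these data known. The text names every member, the listed genes with an unadjusted p under 0.05 or otherwise the 3 most abundant, and the closest profiles. Receptors of the members, Il6st, Lifr, Il6ra, Ptprc, Pecam1, Cdh5, Postn and genes marked so were added after seeing values. So were the reticular cell markers other than Angpt1. Alternatives covered pseudocount, filter, variance trend, scaling, replicate block, a Y-linked covariate and each library left out.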

Additional observations from a re-analysis of the deposited data

How the results depend on the processing

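Of the 15 alternatives to the main setting (pseudocounts of 0.1 and 0.5, no filter, a stricter filter, variance trend, upper-quartile scaling, quantile normalization, replicate block, Y-linked covariate and each library left out), none gave a member an adjusted p under 0.05 in limma. Same-numbered libraries come from different animals, and the correlations of their deviations from the mean of each group were 0.03, -0.17 and 0.21. Libraries of different numbers gave -0.27 to 0.28. With 3 libraries per group, such values cannot settle whether the numbers pair the libraries. With the replicate block 0 genes and 0 members had an adjusted p under 0.05, and the log2 fold change of Lif was 0.28 (adjusted p = 0.361 in limma). It was 0.24 with the Y-linked covariate and 0.42 with a pseudocount of 0.1. With that covariate the log2 fold change was 0.24 for Cxcl12, 0.095 for Ccl7 and -0.090 for Cxcl14. These lay closer to 0 than in the main setting (0.32, 0.15 and -0.17). Those of Cxcl5 (-0.35) and Ccl2 (-0.23) lay further from 0 (main setting -0.24 and -0.20).

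Leaving out 1 library gave 0 to 334 genes with an adjusted p under 0.05 (334 without cKO replicate 1), 0 to 1 pathway genes, 1 to 3 members with an unadjusted p under 0.05 (beside 7.41% to 21.3% of all genes) and 1 to 4 members whose groups did not overlap (beside 23.7% to 42.0% of all genes). The 3 members, without control replicate 3, stood beside 13.8% of all genes. Over these fits the log2 fold change of Cxcl5 was -0.63 to 0.020 and that of Cxcl1 -0.20 to 0.29. The sign turned for Cxcl5 without control replicate 2, and for Cxcl1 without control replicate 1 (-0.20), without control replicate 3 (-0.07) and without cKO replicate 1 (-0.17). The cause was not tested. The Ccl7 over Ccl2 ratio, and its values with 1 library left out, were chosen after seeing the data and support nothing here. FPKM hides depth, so the counting error of Cxcl2, Cxcl1, Il6 and Lif is unknown.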

Other observations

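Lcn2, which encodes the iron-binding acute-phase protein lipocalin-2, was chosen after its values were seen. It was 0.65, 0.19 and 0.38 FPKM in control replicates 1, 2 and 3, against 0.66, 2.77 and 3.49 FPKM in cKO replicates 1, 2 and 3. The lowest cKO value exceeded the highest control value by 0.01 FPKM, the step of the deposited values, and with at least 1 FPKM in fewer than 3 libraries the gene was not tested.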
